A study of Mus musculus with 5 samples.

Results

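The miR-99/100 and miR-125 families were followed in unwounded and healing mouse skin through their 5 main mature forms, named on the array mmu-miR-99a-5p, mmu-miR-99b-5p, mmu-miR-100-5p, mmu-miR-125a-5p and mmu-miR-125b-5p and written below without the prefix for the mouse. These members were chosen by name from their families, by a rule that used no measured value, though earlier results of these data were known. They are 5 of the 1900 mouse miRNA probes on each array. Total RNA of back skin from female mice was labelled with Cy3 and hybridised by a service provider, LC Sciences, to single-colour miRNA arrays. There was 1 array for each of 5 conditions: unwounded skin of 2-year-old mice (D0), their wounds on days 3, 5 and 7 (D3, D5 and D7), and unwounded skin of 8-week-old mice. All skin was in telogen, the resting phase of the hair cycle, and the wounds were 3 mm full-thickness punch biopsies. The strain, and whether an array held RNA of 1 animal or of several, are not given in the sources used here. With 1 array a condition no difference between conditions could be tested, and the only replicate measure is the pair of spots that each miRNA has on an array, which covers error within that array only.

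A miRNA guides the silencing complex to messenger RNAs mainly through its seed, the short stretch near its 5′ end, so miRNAs with one seed are grouped as a family and can bind shared targets. miR-99a, miR-99b and miR-100 form 1 such family, known for targeting the mTOR kinase and the IGF1 receptor, and miR-125a and miR-125b form another, the relatives of lin-4, the first miRNA described, which keeps cells of the worm on a developmental timetable. In mammals both families are transcribed together with let-7 miRNAs from shared gene clusters, and miR-125b is known in skin for holding hair follicle stem cells in an undifferentiated state.

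The mature sequences are shown first because the seed divides the members into families while the bases outside it tell them apart. They are those of the array files, all 5 identical to the RefSeq entries of the assembly GRCm38.p6, written 5′ to 3′ with the seed (bases 2 to 8) in capitals.

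miR-99a-5p: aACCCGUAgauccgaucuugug
miR-99b-5p: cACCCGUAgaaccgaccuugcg
miR-100-5p: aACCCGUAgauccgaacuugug
miR-125a-5p: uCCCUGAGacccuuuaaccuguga
miR-125b-5p: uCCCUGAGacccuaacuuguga

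miR-99a-5p and miR-100-5p differed by the single substitution U16A, counted from 1 at the 5′ end of miR-99a-5p. The probe sequences were not used here, so how far the array tells these 2 miRNAs apart is not known, and the signal of each may hold some of the other. miR-99b-5p differed from miR-99a-5p by A1C, U11A, U16C and U21C, and had 14 G or C bases of 22 where the other members of its family had 11. miR-125a-5p was 24 bases long and lay 3 edits from miR-125b-5p, which was 22 long. No other miRNA on the array carried the seed of miR-99a, miR-99b and miR-100. The seed of the miR-125 pair was shared by 3 further probes, for miR-351-5p, miR-6394 and miR-6367.

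The members came from 3 gene clusters of the same layout, a miR-99/100 gene, then a let-7 gene, then a miR-125 gene. In GRCm38.p6, mature miR-99a-5p lay at chr16:77598940-77598961 on the plus strand, upstream of Mirlet7c-1, and a copy of miR-125b-5p, from Mir125b-2, lay at chr16:77646279-77646300, with no annotated gene spanning all 3. miR-100-5p lay at chr9:41531437-41531458 on the plus strand, followed by Mirlet7a-2 and by the other copy of miR-125b-5p, from Mir125b-1, at chr9:41581940-41581961, all within the long non-coding RNA gene Mir100hg. The tightest cluster held miR-99b-5p at chr17:17830194-17830215, Mirlet7e and miR-125a-5p at chr17:17830817-17830840, all on the plus strand within the gene Spaca6. Because Mir125b-1 and Mir125b-2 give the same mature sequence, the array could not tell which cluster a miR-125b-5p signal came from.

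All 5 members were measured well above background. A detection level was set on each array at the 95th percentile of its 4 empty spots, and the scanned intensity of the members was between 9.11 times that level, for miR-99b-5p at D7, and 108 times, for miR-125b-5p in young skin. Each member was thus among the 298 bright miRNAs, those whose geometric mean over the 5 arrays was at least 2 times the detection level, and the members are read against these below. The D7 array stood apart from the other 4 in how the repeat spots behaved. Over the bright miRNAs, the log2 ratio of spot 1 to spot 2 correlated between arrays at r = 0.59 to 0.73 in the 6 pairs without D7, and at -0.27 to 0.08 in the 4 pairs with it. For miR-125b-5p spot 1 was 1.27 to 1.48 times spot 2 on the other arrays and 0.718 times on D7, and for miR-125a-5p it was 1.26 to 1.53 times and 0.749 times. The miR-100-5p spots stayed close to each other, with ratios of 0.861 to 1.01 over all 5 arrays. So at D7 the values of the miR-125 pair depend on which spot is read, while those of miR-100-5p hardly do.

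**Figure D1:**
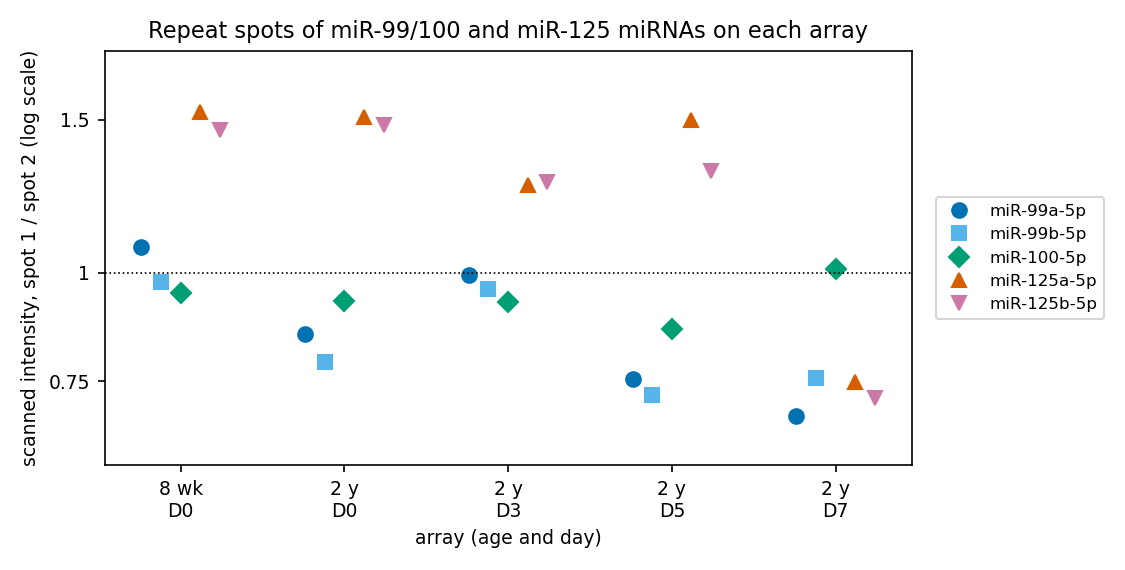
Scanned intensity of spot 1 over spot 2 (log axis) for the 5 miRNAs on each array, without normalisation. miR-125a-5p and miR-125b-5p lie above 1 on 4 arrays and below 1 on the array of D7 aged skin, and miR-100-5p stays between 0.861 and 1.01.

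The levels that follow are intensities after background correction and quantile normalisation over the 5 arrays, a step that gives every array the same distribution of values. They can be compared between arrays for one miRNA but not between miRNAs, whose probes differ. In aged skin the level of mmu-miR-99a-5p went from 3653 at D0 to 1998 at D3, 2308 at D5 and 3375 at D7, beside 3705 in young skin. It was lowest at D3 and D5, and both D0 arrays and D7 were alike. For mmu-miR-100-5p the aged levels were 1533 at D0, 864 at D3, 1021 at D5 and 2116 at D7, and young skin had 3135. This was the only one of the 5 for which no neighbours in the order of levels had overlapping spots: young skin was highest, then D7, aged D0, D5 and D3. For mmu-miR-99b-5p they were 1285 at D0, 765 at D3, 1173 at D5 and 781 at D7, and young skin had 773. It fell into a higher pair, aged D0 and D5, and a lower trio, and only the step from D5 to D7 separated spots of neighbouring arrays. In the miR-125 family, mmu-miR-125a-5p had aged levels of 2721 at D0, 1461 at D3, 3169.5 at D5 and 2081 at D7, with 1947 for young skin. mmu-miR-125b-5p had 6992 at D0, 4277 at D3, 8120.2 at D5 and 6545 at D7, with 5238 for young skin. Both kept one order of arrays, with D5 highest, then aged D0, D7, young skin and D3, but the spots of all neighbouring arrays in that order overlapped.

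**Figure D2:**
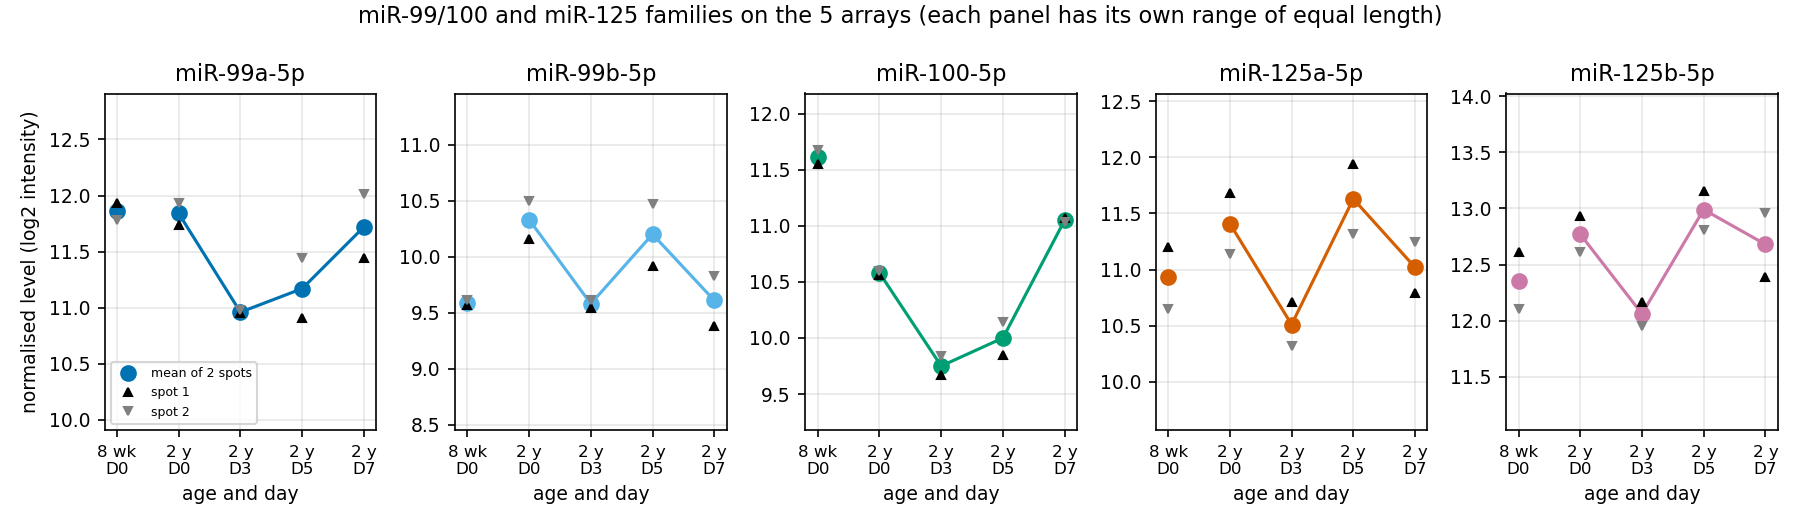
Normalised level (log2 intensity) of each miRNA on the 5 arrays, with large points for the mean of the 2 spots, triangles for the spots, and a line joining the arrays of aged skin. Levels are not comparable between panels. Each miRNA dips at D3, miR-99a-5p and miR-100-5p stay low at D5, and miR-100-5p is highest in young skin.

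At D3 all 5 members were below unwounded aged skin. The ratio of D3 to D0 was 0.547 for miR-99a-5p (spots 0.580 and 0.516), 0.595 for miR-99b-5p (0.654 and 0.542) and 0.564 for miR-100-5p (0.537 and 0.591). It was 0.537 for miR-125a-5p (0.509 and 0.566) and 0.612 for miR-125b-5p (0.591 and 0.633). For every member both spots lay below 1. Of the bright miRNAs, 60.4% were also below 1, and their median ratio was 0.854. Relative to that median the members stood at 0.628 to 0.716, and between 55 and 70 of the 298 bright miRNAs had a lower ratio than a given member. No member fell by at least 2-fold, against 32.6% of the bright miRNAs that changed so far in either direction. Since the arrays measure whole tissue, fewer cells of a type and less of a miRNA per cell cannot be told apart here or in the comparisons below.

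The low D3 values held however the arrays were put on one scale. Under 8 scalings, which were quantile normalisation, cyclic loess, no normalisation, the median, the 75th percentile, the spike controls, the 5S ribosomal RNA probes and the authors' processed values, every member stayed below 1 at D3. The lowest ratios, 0.282 for miR-125b-5p to 0.388 for miR-99b-5p, came from scaling to the spike controls. Relative to the bright median of the same scaling, the members ranged from 0.495 to 0.797 and never reached 1. Scaling to the median, the 75th percentile, the spike controls or the 5S probes only shifts each unnormalised array by a common factor. Values relative to the bright median and quotients between members are therefore the same in these scalings and without normalisation, by construction, here and below. The members also stayed close to each other: taken in pairs in the order listed above, the D3 ratio of one over that of a later one lay between 0.877 and 1.11, and between 0.735 and 1.38 over the scalings.

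At D5 the members parted after quantile normalisation. miR-99a-5p and miR-100-5p remained low, with ratios to D0 of 0.632 (spots 0.563 and 0.709) and 0.666 (0.611 and 0.726). miR-99b-5p was at 0.913 (0.849 and 0.981). The miR-125 pair was above D0, with ratios of 1.16 (1.20 and 1.13) for miR-125a-5p and 1.16 (1.18 and 1.15) for miR-125b-5p, but their direction turned with the scaling, miR-125a-5p being below 1 in 5 of the 8 scalings and miR-125b-5p in 6. miR-99a-5p and miR-100-5p were below 1 in all 8, and miR-99b-5p in 7. Thus 3 of 5 members were below 1 after quantile normalisation, beside 49.0% of the bright miRNAs, and none had changed by 2-fold or more, beside 17.4%. The median ratio of the bright miRNAs was 1.0 at D5.

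The ratio of one miRNA over that of another on the same arrays kept its side of 1 for miR-99a-5p and miR-100-5p against the miR-125 pair, but its size moved with the scaling and was furthest from 1, or nearly so, after quantile normalisation. The D5 ratio of miR-99a-5p was 0.542 of that of miR-125a-5p, and 0.542 to 0.622 over the 8 scalings. It was 0.544 of that of miR-125b-5p, and 0.544 to 0.794 over the scalings. For miR-100-5p the same quotients were 0.572, with a range of 0.567 to 0.721, and 0.573, with a range of 0.573 to 0.887, so that against miR-125b-5p the gap was moved by over 1.5 times. miR-99b-5p had no settled place beside the miR-125 pair, at 0.784 of the ratio of miR-125a-5p (0.784 to 0.996) and 0.786 of that of miR-125b-5p (0.786 to 1.23). Within the miR-99/100 family, miR-99a-5p stood at 0.692 of the ratio of miR-99b-5p, ranging over the scalings from 0.550 to 0.736. Between the miR-125 pair the quotient was 1.0, and 0.994 to 1.28 over the scalings. The D5 level was 2.17 times the D3 level for miR-125a-5p and 1.90 times for miR-125b-5p, where miR-99a-5p stood at 1.15 times with spots on both sides of 1 and miR-100-5p at 1.18 times. The bright median of that step was 1.11, and the step of the miR-125 pair was between 1.35 and 2.17 times over the scalings.

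At D7 miR-100-5p was the only member with both spots above D0. Its ratio was 1.38 (spots 1.42 and 1.34), it was above 1 in all 8 scalings with a range of 1.17 to 2.26, and relative to the bright median it was 1.43 to 1.58. Its D7 level was 2.07 times its D5 level, with spots at 2.32 and 1.85 and a range over the scalings of 2.03 to 4.80. miR-99b-5p was lowest, at 0.608 of D0 (0.586 and 0.630), below 1 in 7 of 8 scalings and at 1.03 when scaled to the 5S probes. The other ratios had spots on both sides of 1: 0.924 for miR-99a-5p (0.810 and 1.05), 0.765 for miR-125a-5p (0.541 and 1.08) and 0.936 for miR-125b-5p (0.690 and 1.27). No direction can be read for these 3 from this array, whose spot pattern stood apart. By count, 4 of 5 members were below 1, beside 53.0% of the bright miRNAs, and none had changed by 2-fold, beside 18.8%. The median ratio of the bright miRNAs was 0.965.

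Of the pairs of members at D7, miR-99b-5p and miR-100-5p, which share a seed, were furthest apart after quantile normalisation. The ratio of miR-99b-5p was 0.440 of that of miR-100-5p, and 0.416 to 0.456 over the scalings. miR-99a-5p, 1 base away from miR-100-5p, stood at 0.669 of its ratio, with a range of 0.549 to 0.691, and at 0.571 to 0.784 over the choices of spot.

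**Figure D3:**
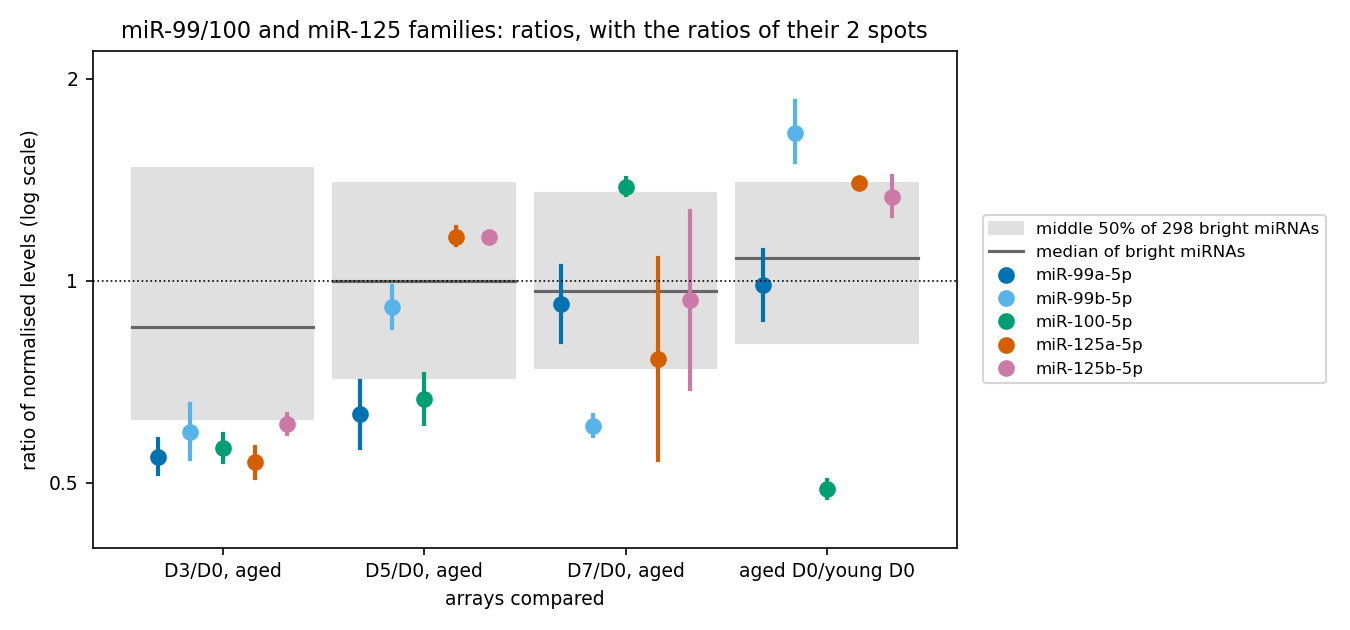
Ratio of normalised levels (log axis) for each miRNA in the 4 comparisons, with bars joining the ratios of the 2 spots, beside the quartiles (grey band) and median (grey line) of the 298 bright miRNAs. All 5 lie at 0.537 to 0.612 at D3, they spread at D5 and D7, and miR-100-5p alone is near 0.5 in aged over young skin. The values are for quantile normalisation, and with other scalings miR-99b-5p, miR-125a-5p and miR-125b-5p cross 1 in D5/D0, D7/D0 and aged over young skin and miR-99a-5p in D7/D0 and aged over young skin.

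In unwounded skin the member with the lowest ratio of aged to young was miR-100-5p. Its scanned intensity was 1241 in aged and 7549 in young skin, a ratio of 0.164 before normalisation. After quantile normalisation the ratio of aged to young was 0.489 (spots 0.505 and 0.474), so that the difference reached 2-fold by the mean and the second spot and missed it by the first. It was below 1 in all 8 scalings, from 0.151 to 0.553, and relative to the bright median of each scaling it was 0.357 to 0.452. Of the bright miRNAs 33 had a lower ratio and 264 a higher one. It was the 1 member of 5 that differed by at least 2-fold, beside 16.8% of the bright miRNAs.

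The ratios of the other members lay near or above 1 after quantile normalisation, and their side of 1 turned with the scaling. The ratio of aged to young was 0.986 for miR-99a-5p (spots 0.875 and 1.11), which has no direction. It was 1.66 for miR-99b-5p (1.5 and 1.85), 1.40 for miR-125a-5p (1.39 and 1.40) and 1.33 for miR-125b-5p (1.25 and 1.43), but these 3 were below 1 in 4 of the 8 scalings each, those without normalisation and to the median, the spike controls and the 5S probes. The median ratio of all bright miRNAs moved with them, from 0.424 when scaled to the median to 1.55 when scaled to the 75th percentile, and was 1.08 after quantile normalisation. Relative to that median the 3 were above 1 in all 8 scalings, at 1.19 to 1.53 for miR-99b-5p, 1.26 to 1.34 for miR-125a-5p and 1.17 to 1.45 for miR-125b-5p, and miR-99a-5p was below it in all 8, at 0.836 to 0.910. In all 8 scalings miR-100-5p had the lowest ratio of the 5 and miR-99a-5p the next. The order of miR-99b-5p, miR-125a-5p and miR-125b-5p among themselves turned with the scaling. Scalings that differ only by a factor for each array share their order and their values relative to the bright median by construction. After quantile normalisation 2 of 5 members were lower in aged skin, beside 40.6% of the bright miRNAs.

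**Figure D4:**
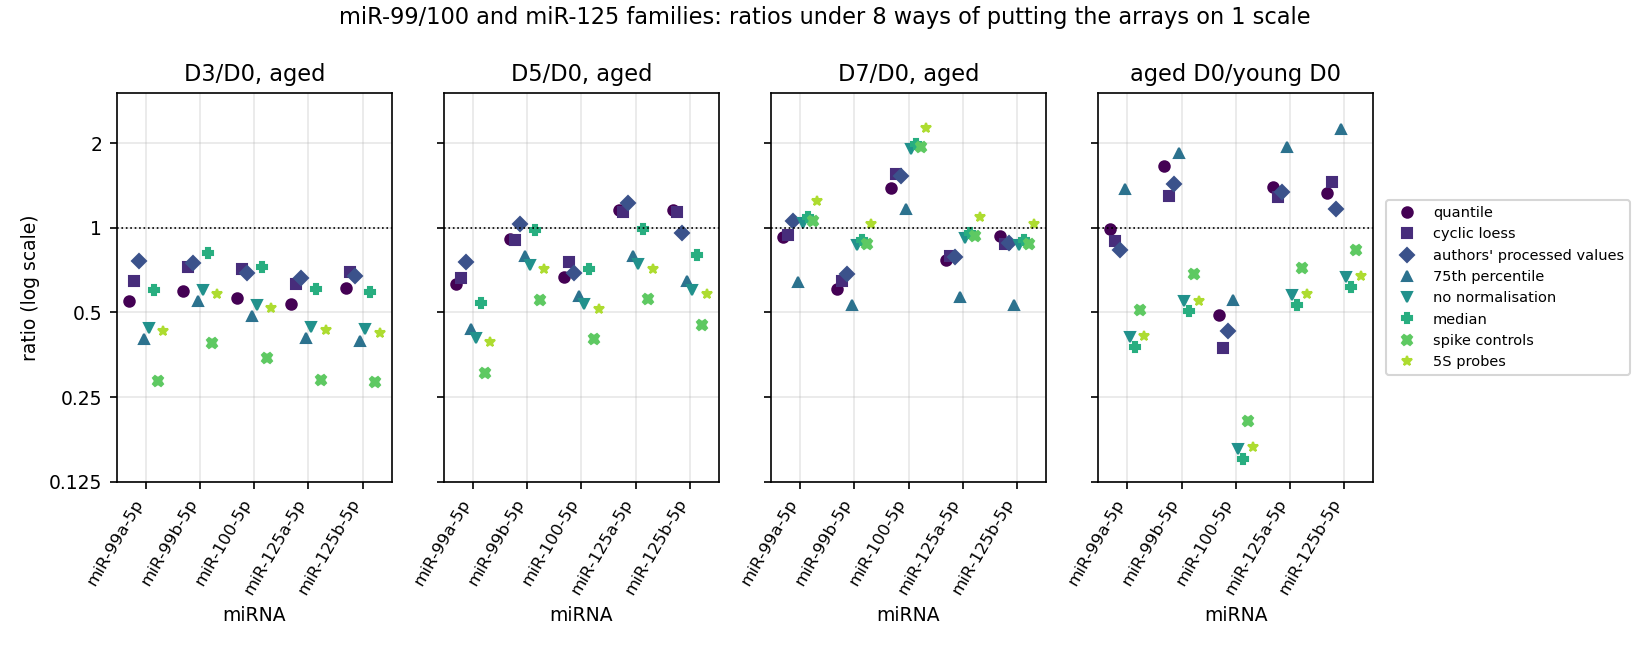
Ratio of each miRNA (log axis) in the 4 comparisons under 8 ways of scaling the arrays, 1 symbol for each. All 5 stay below 1 at D3, and miR-100-5p stays above 1 at D7 and below 1 in aged over young skin. The side of 1 of miR-99b-5p, miR-125a-5p and miR-125b-5p turns with the scaling at D5, D7 and in aged over young skin, as that of miR-99a-5p does at D7 and in aged over young skin.

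miR-99a-5p and miR-100-5p, which differ by U16A alone, had different ratios between the ages, as read from probes whose separation of the 2 sequences is not known. The aged over young ratio of miR-99a-5p was 2.02 times that of miR-100-5p, with 1.73 to 2.35 times over the choices of spot and 1.95 to 2.48 times over the scalings. For miR-99b-5p against miR-100-5p it was 3.4 times, with 3.33 to 3.48 times over the scalings. The miR-125 pair stayed together, with miR-125a-5p at 1.05 times miR-125b-5p. All 4 comparisons use the array of aged D0 skin, so a low value of miR-100-5p on it would both lower its aged over young ratio and raise its D7 ratio. D7 wounds of aged skin had a lower level of miR-100-5p than young unwounded skin, 2116 against 3135, with spots that did not overlap. Those arrays differ in wounding as well as in age, and their levels were normalised together with the aged D0 array. Whether the aged D0 value was low by itself was not tested.

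After quantile normalisation the profiles of the members over the 5 arrays followed the seed families only in part, with miR-99b-5p apart from its own family. The log2 levels correlated at r = 0.964 between miR-125a-5p and miR-125b-5p and at 0.88 between miR-99a-5p and miR-100-5p. miR-99b-5p went with the miR-125 family, at 0.862 with miR-125a-5p, its neighbour in the Mir99b cluster, and 0.759 with miR-125b-5p, and not with miR-100-5p, at -0.317. These are descriptions over 5 arrays that share one normalisation, and the value for miR-99a-5p and miR-100-5p is also that of probes for sequences 1 base apart. No r was computed with another scaling, so the place of miR-99b-5p by r holds for quantile normalisation only. Before normalisation miR-99b-5p and miR-100-5p both had their highest scanned intensity in young skin, at 1855 and 7549. Among the other bright miRNAs, miR-30c-5p was most like miR-99a-5p (r = 0.993), let-7d-3p most like miR-99b-5p (0.992) and miR-30e-5p most like miR-100-5p (0.995). miR-24-3p was most like both miR-125a-5p (0.988) and miR-125b-5p (0.984). miR-30e-5p had, as miR-100-5p did, ratios below 1 at D3 (0.631) and D5 (0.687), above 1 at D7 (1.27) and below 1 in aged over young skin (0.643). Each of these most alike miRNAs was picked from 288 by its correlation on these same arrays. Their high r and like ratios follow from that choice and give no evidence of a relation.

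Of the let-7 miRNAs that lie in the same clusters, all 3 were lower at D3, with ratios of 0.389 for let-7c-5p, 0.497 for let-7a-5p and 0.374 for let-7e-5p. Both let-7c-5p and let-7a-5p are also made from genes elsewhere, so their signal is not that of the cluster alone. let-7e-5p, which lies between miR-99b-5p and miR-125a-5p, parted from its neighbours. Its scanned intensity in aged skin was 703 at D0, 298 at D3, 541 at D5 and 1537 at D7, and in young skin it was 6498. It was highest in young skin and, among the aged arrays, at D7, as miR-100-5p was. The aged over young ratio of let-7e-5p was 0.349 (spots 0.401 and 0.304), from 0.100 to 0.366 over the scalings, where miR-99b-5p was at 1.66 and miR-125a-5p at 1.40, each below 1 in 4 scalings. The highest ratio in that cluster was 4.76 times the lowest. At D7 let-7e-5p was at 1.40 (1.37 and 1.42), above 1 in all 8 scalings, and the highest ratio was 2.30 times the lowest. In the cluster of miR-99a-5p and let-7c-5p the 2 ratios were at most 1.41 times apart. In that of miR-100-5p and let-7a-5p they were 2.07 times apart in aged over young skin, at 0.489 and 1.01, and 1.54 times at D7.

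**Figure D5:**
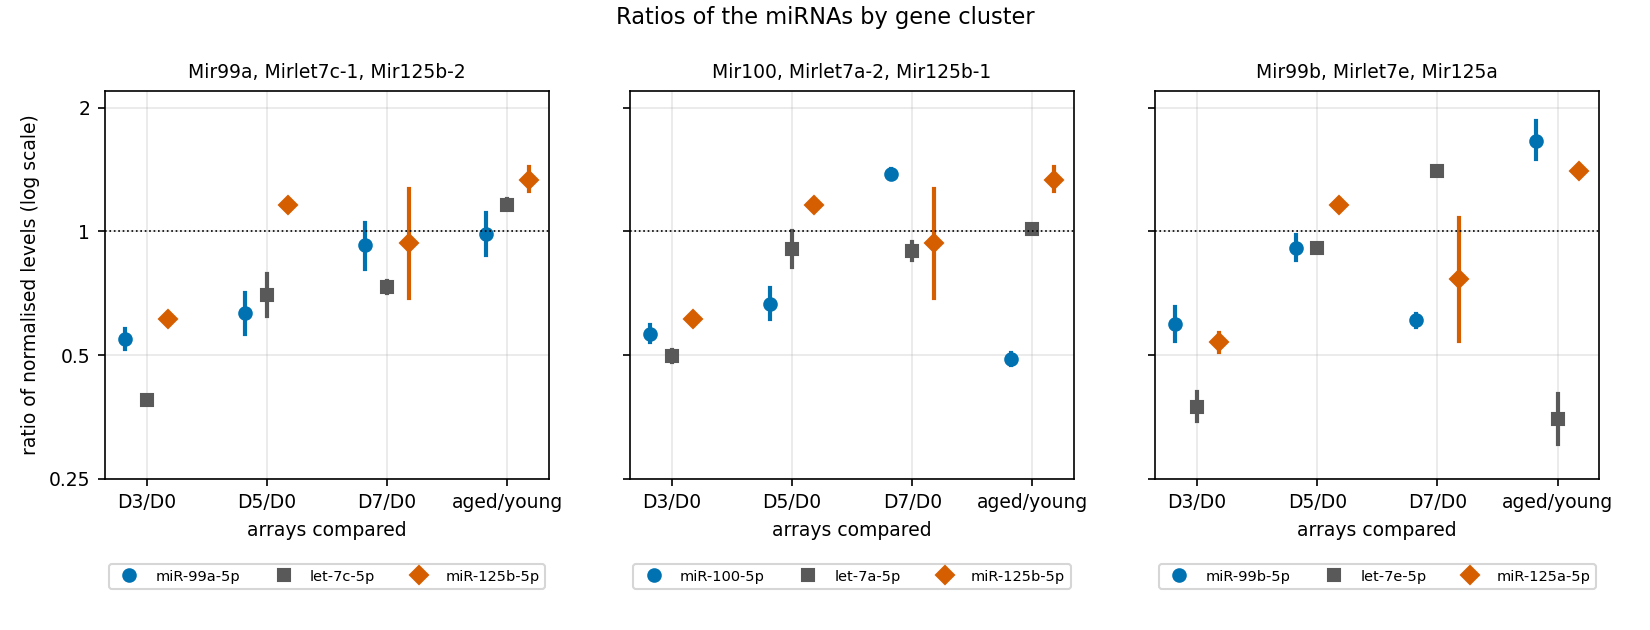
Ratios of normalised levels (log axis) of the miRNAs of each gene cluster in the 4 comparisons, with bars joining the ratios of the 2 spots. miR-125b-5p appears in both clusters that encode it. In the Mir99b cluster let-7e-5p lies at 0.349 in aged over young skin, where miR-99b-5p and miR-125a-5p lie at 1.66 and 1.40, which are below 1 in 4 of 8 scalings.

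The opposite arms of the same precursors gave little signal. All 6 were on the array, and 18 of their 30 values passed the detection level, the highest at 1.51 times it. Of all 1900 mouse miRNA probes, 589 passed it on the array of aged D0 skin, 1768 at D3, 1071 at D5 and 1559 at D7. In young skin 691 passed it, and 498 probes did so on all 5 arrays, so passing it says little about these arms. miR-100-3p was detected on no array, and miR-125a-3p and miR-125b-2-3p on all 5. No ratio of these arms is read at such intensities. Of the probes that share the seed of the miR-125 pair, miR-351-5p, encoded on the X chromosome, had scanned intensities in aged skin of 133 at D0, 123 at D3, 188 at D5 and 226 at D7, and of 247 in young skin. These are 1.26 to 3.07 times the detection level, lowest at D0, so no ratio to D0 is read. miR-6394 was at most 2.04 times the detection level, and miR-6367 was below it on 3 arrays.

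miR-351-5p: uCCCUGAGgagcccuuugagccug

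These 24 bases are shown to set beside miR-125a-5p, with which miR-351-5p shares the capitals, its seed, and the first base.

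Marker miRNAs of other cell types, all present on the array, moved between the same arrays. The summed level of the 5 leukocyte markers was 1088 in aged D0 skin, then 5328 on day 3, 3688 on day 5 and 3707 on day 7. It was 2652 for young skin. The D3 sum was 4.90 times D0 where the members were lower. Single leukocyte markers ranged from 0.743 to 15.3 times D0 at D3, with 1 of the 5 below 1. Only 4 of the 5 were detected on the aged D0 array, the reference of these ratios. The 4 skeletal muscle markers summed to 28504 at D0 and 8817 at D3, a ratio of 0.309, and were at 32573 in young skin. The 7 epithelial markers, 6 of them below 1 at D3, had summed ratios of 0.571, 0.779 and 0.664 on the 3 days in turn, and of 1.74 in aged over young skin. The 5 fibroblast and smooth muscle markers had summed ratios of 0.553, 0.981, 1.26 and 1.16 in the same order. At D7 they ranged singly from 0.578 to 2.94, with 2 of the 5 below 1. The 3 erythroid markers had summed ratios of 0.517, 0.804, 0.401 and 2.13, and all 3 were detected on the D3 array only. The summed level of the 2 endothelial markers had ratios between 0.718 and 1.16, and only 1 of the 2 was detected on each array of aged skin. These sums and ratios are after quantile normalisation, and the aged over young direction of several lists turned without it. Summed scanned intensity in aged D0 and young skin was 38489 and 46538 for the epithelial markers. It was 17523 and 36248 for fibroblast and smooth muscle, 3175 and 7617 for endothelium, and 2034 and 2496 for erythroid cells. The leukocyte and skeletal muscle sums were lower in aged skin both ways. The part of the marker shifts in the members' values was not tested.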

How the data were processed

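The authors deposited, for each of the 5 arrays, scanner files with the intensity of every spot on a linear scale, and a table of processed intensity for each miRNA. The local background columns of the scanner files are empty. How the processed values were normalised is not given in the sources used here, nor is the scanner. Their column medians are 5.59, 7.79, 7.26, 8.21 and 8.26 (aged D0, D3, D5, D7 and young D0). Groups were taken from the sample labels, and 0 columns lacked a sample.

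From the scanned intensity, spots were corrected with limma's normexp (offset 50), fitted on spot intensities alone because no background was given, although background columns had been planned for. Control spots were left out, log2 values were quantile normalised over the 5 arrays, and a miRNA's level is the mean of its 2 spots. Ratios are of 2 arrays. Precision is limited by 1 array a condition, so no test was run. The repeat-spot SD, that of the mean log2 ratio over 2 spots, was estimated from the repeat spots of the bright miRNAs at 0.14 to 0.26. The SD for a single spot is larger. Named miRNAs were the members, their other arms, the let-7 miRNAs of the same clusters, miRNAs with a shared seed or within 3 edits, and for each member the 3 bright miRNAs with the highest correlation. The members and lists were chosen with earlier results of these data known. miR-10a-5p, within 3 edits of miR-100-5p, had ratios of 0.668, 0.417, 0.786 and 0.918 for the 3 wound days in turn and for aged over young skin.

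Alternatives were other scalings, offsets and background corrections, each spot alone, and other filters, and the scripts were tested on simulated data. Removing a trend over the array position was added after seeing the data. Sequences and positions are those of RefSeq for GRCm38.p6, and all members matched. The normalisation ran in limma 3.58.1 under R 4.3.3, the ratios in pandas 2.3.3 and numpy 2.4.6 under Python 3.11.15, and the plots were drawn with matplotlib 3.10.9.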

Additional observations from a re-analysis of the deposited data

How the results depend on the processing

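No paired analysis was possible because there is only 1 array of each kind of skin. Of 280 member ratios under 14 alternatives, 169 moved by no more than the repeat-spot SD. Another 86 moved further on the same side of 1 or had spots on both sides to begin with. The remaining 25, with both spots on one side to begin with, fell on the other side of 1. Ratios with spots on both sides of 1 crossed it as well, but are counted among the 169 and the 86. An example is miR-99a-5p at D7, at 0.924 after quantile normalisation and 1.24 with the 5S probes. The number of members below 1 at D3 stayed 5 under every alternative, and the count at least 2-fold changed there, 0 after quantile normalisation, was 3 without normalisation, 4 with the 75th percentile, 5 with the spike controls and 3 with the 5S probes. At D5, 5 members were below 1 without normalisation and with the median, the 75th percentile, the spike controls and the 5S probes, and 1, 1, 3 and 1 were changed by 2-fold without normalisation and with the 75th percentile, the spike controls and the 5S probes. At D7, 0 were below 1 with the 5S probes and 1 with the second spot alone, and 1 was changed by 2-fold with the 5S probes. In aged over young skin, 5 members were lower without normalisation and with the median, the spike controls and the 5S probes, and 1 with the 75th percentile or the second spot alone. The number 2-fold different was 2 without normalisation, with the median and with the 5S probes, and 0 with the first spot alone. The matching shares of bright miRNAs are not given for each scaling. These counts of members can therefore not be told apart from a shift of all bright miRNAs, whose D3 median was 0.570 with the spike controls.

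The D5 ratio of miR-99b-5p was 1.03 and that of miR-125b-5p 0.954 with the authors' processed values. Without normalisation and with the median, the 75th percentile, the spike controls and the 5S probes, the D5 ratio of miR-125a-5p was 0.743, 0.987, 0.795, 0.556 and 0.716, and that of miR-125b-5p 0.603, 0.802, 0.646, 0.452 and 0.582. The D7 ratio of miR-99b-5p was 1.03 with the 5S probes. Without normalisation and with the median, the spike controls and the 5S probes, the aged over young ratio of miR-99b-5p was 0.547, 0.504, 0.682 and 0.551, that of miR-125a-5p 0.578, 0.533, 0.721 and 0.582, and that of miR-125b-5p 0.667, 0.615, 0.832 and 0.672. Under these settings the median ratio of all bright miRNAs moved as well, and the cause was not tested. Removing the position trend, chosen after seeing the data, changed no count of members. With miRNAs detected on at least 1 array in place of bright ones, the share changed by 2-fold was 6.09%, 5.28% and 4.35% on the 3 wound days in turn and 8.34% in aged over young skin.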
